A study of Mus musculus with 16 samples.

Results

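The comparison described here is odor against vehicle in the GFP- cells sorted from mouse olfactory mucosa. It rests on 8 of the 16 arrays of the series, 4 from odor-exposed and 4 from vehicle-exposed pools, chosen by their labels alone. The mice carried the S100a5-tauGFP reporter, in which GFP is tied to the neuronal gene S100a5, and 24 animals of both sexes, aged 7 to 12 weeks, were kept singly in clean-air chambers for 40 h at an air flow of 3.1 L/min. From 26 h onward they received either 1-pentanethiol, a volatile thiol, or filtered air as the vehicle, in 10-s pulses every 20 min. The mucosa of 3 mice was pooled for each replicate, dissociated and sorted by fluorescence, and each pool gave a GFP- and a GFP+ sample. All groups therefore carry the reporter, the chamber stay and the dissociation. The stimulus is taken from the sample labels and the title, which give 1-pentanethiol, although the design text of the series gives bourgeonal. RNA from 50 to 100 ng per sample was hybridised to Clariom S arrays, which carry a set of probes for each of most protein-coding genes.

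An olfactory sensory neuron expresses a single odorant receptor gene out of a very large family, and this choice decides which odors activate the cell. S100a5 is a calcium-binding protein whose transcription in these neurons rises with activity, so the reporter brightens in neurons that an odor activates and the sorter moves those cells from the GFP- into the GFP+ fraction. The GFP- fraction keeps the neurons that stayed dim together with every other cell of the mucosa, including supporting cells, stem cells and blood cells. In a sorted fraction of many cells, fewer cells of a type and less RNA per cell cannot be told apart.

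The values are the authors' deposited log2 signals, so a difference of 1 is a 2-fold change. Tests were made over 22206 probe sets, of which 1080 belong to odorant receptors (symbols starting Olfr), and a probe set was called when its Benjamini-Hochberg adjusted p from limma was under 0.05. The GFP- arrays were alike in scale, with medians of 7.71 to 7.78 and negative control medians of 5.99 to 6.12. Arrays of the same group correlated across probe sets at 0.991 to 0.995, and so did arrays of different groups. Mature neurons were present in every GFP- sample, as the olfactory marker protein gene Omp lay between 18.14 and 18.34. S100a5 itself, the gene behind the reporter, was read at 15.70 to 16.36 on the GFP- arrays and at 16.55 to 17.11 on the GFP+ arrays, so the transcript was read in both fractions. S100a5 and the reporter were not measured per cell.

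Odor changed a small set of transcripts in GFP- cells, nearly all of them odorant receptors. Of the 22206 probe sets 13 were called (0.0585%), 1 higher after odor (0.0045%) and 12 lower (0.054%). The transcript that rose was Pcdh10, which encodes an adhesion molecule of the delta-protocadherin group that olfactory axons use when they sort into glomeruli. All 12 that fell were odorant receptors, 1.11% of the 1080 measured, by 2.02-fold to 17.9-fold. The upper value, that of Olfr1183, is not an exact size, since 1 of its odor arrays lay under the negative control median. No gene outside the receptor family fell past the threshold in this fit, although 422 of the 21126 other probe sets were lower at an unadjusted p under 0.05. At that level 4.02% of all probe sets differed, 2.15% lower and 1.87% higher.

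Pcdh10 was read at 12.40, 12.03, 11.49 and 11.53 on odor arrays 1 to 4, and at 8.28, 8.29, 8.91 and 8.85 on vehicle arrays 1 to 4. Every odor array lay more than 2 log2 units above every vehicle array. The mean was 11.86 ± 0.43 (SD, n = 4) after odor and 8.58 ± 0.34 (SD, n = 4) after vehicle, a difference of 3.28 ± 0.23 (SE), or 9.73-fold, with an adjusted p of 0.00095 from limma. Pcdh10 was called under every alternative processing and every left-out array that was tried. Because Pcdh10 transcription is known to follow neuronal activity, the 250 bases before its RefSeq start are shown with the letters of the short cAMP response element, TGACG, in capitals (build GRCm38.p6, chr3:45378148-45378397, plus strand):
Pcdh10: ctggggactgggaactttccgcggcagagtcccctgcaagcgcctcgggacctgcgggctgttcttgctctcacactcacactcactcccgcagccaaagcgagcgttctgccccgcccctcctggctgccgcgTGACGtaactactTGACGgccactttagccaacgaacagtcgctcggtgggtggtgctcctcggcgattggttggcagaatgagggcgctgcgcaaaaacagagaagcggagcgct
The motif begins 116 and 103 bases before the start. It was searched on both strands and is found in 17.8% of all 32851 windows of this length, so its presence is a description and not a sign of use.

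**Figure D1:**
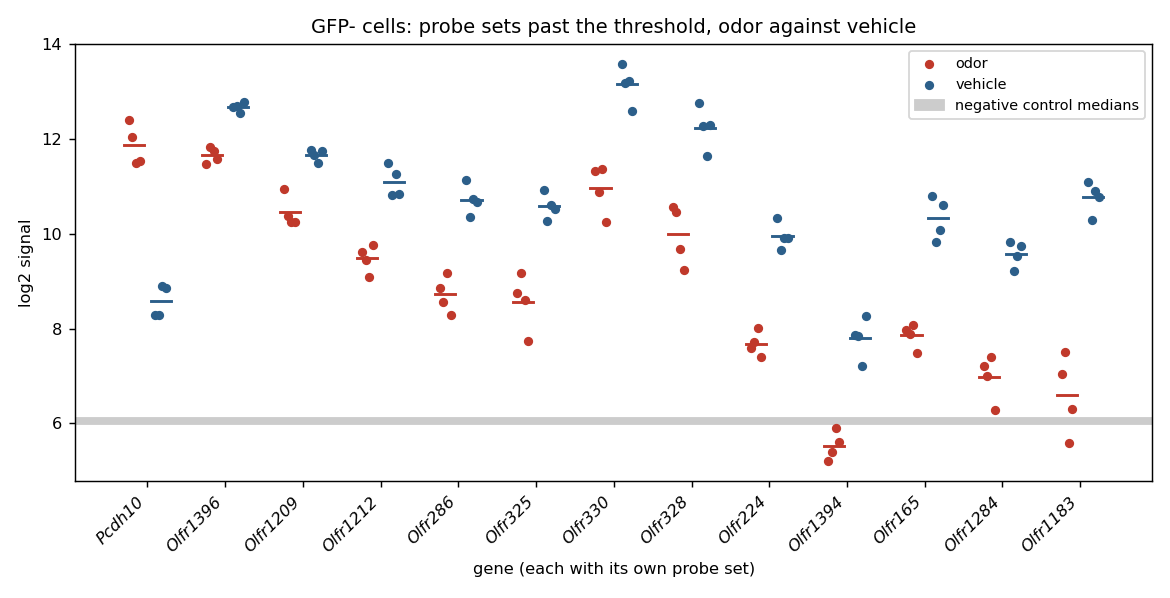
Log2 signal of the 13 called probe sets on each GFP- array, with odor arrays in red, vehicle arrays in blue, a short line at each group mean, and a grey band over the range of the negative control medians. Pcdh10 is the gene whose odor points lie above its vehicle points, and all 12 receptors show the opposite order without overlap. The odor points of Olfr1394 and 1 odor point of Olfr1183 lie below the band.

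Receptors of the MOR275 family made up the largest group of those that fell. MOR numbers group mouse receptors by protein sequence, and 6 MOR275 receptors were measured. Of these, 4 were called lower, namely Olfr224, Olfr328, Olfr330 and Olfr325, and in all 6 every odor array lay below every vehicle array, which was true of 1.37% of all probe sets and 3.06% of receptors. Counting both directions, groups did not overlap in 2.61% of all probe sets. The median difference of the family was -2.10, against 0.10 for all receptors and -0.00193 for all probe sets. The family was picked by its 4 called members, so its counts and median are a description. The arrays do not tell how far probes of such related receptors cross-hybridise, and probe sequences were not analysed here.

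Olfr224 was read at 7.59, 7.71, 8.003 and 7.40 on odor arrays 1 to 4 and at 10.32, 9.67, 9.90 and 9.91 on vehicle arrays 1 to 4. The highest odor array stood below the lowest vehicle array by more than the whole spread within either group. Its difference was -2.27 ± 0.17 (SE), a 4.84-fold fall with an adjusted p of 0.00095 from limma. Olfr330 was read at 11.32, 10.88, 11.36 and 10.26 after odor and at 13.58, 13.19, 13.23 and 12.60 after vehicle. Array 4 was the lowest of its group in both, and the difference of -2.19 ± 0.27 (SE) had an adjusted p of 0.0193, or 0.0056 from limma with the replicate number as a block. Olfr328 was read at 10.57, 10.46, 9.68 and 9.24 after odor and at 12.75, 12.26, 11.64 and 12.30 after vehicle, a difference of -2.25 ± 0.31 (SE).

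For Olfr325 the odor arrays gave 8.75, 9.17, 8.61 and 7.74 and the vehicle arrays 10.91, 10.27, 10.60 and 10.53, a difference of -2.01 ± 0.27 (SE). Odor array 4 was again the lowest. Olfr328 and Olfr325 passed narrowly in limma, with adjusted p-values of 0.0481 and 0.0393. With the replicate number as a block they were 0.0231 and 0.0886, so the Olfr325 call was lost. The other members of the family moved less. Olfr329 had a difference of -1.36 ± 0.28 (SE, adjusted p = 0.432 in limma) and Olfr331 one of -0.64 ± 0.14 (SE, adjusted p = 0.55 in limma).

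The windows before the RefSeq starts of Olfr224 and Olfr330 are shown because these receptors of the same family and neighbourhood fell alike and carry different motif letters (build GRCm38.p6, minus strand, chr11:58570569-58570818 for Olfr224 and chr11:58534826-58535075 for Olfr330). Capitals mark TAATGA, which homeodomain factors bind, TGACGTCA, the full cAMP response element, and CCCNNGGG, the core of sites for Ebf factors:
Olfr224: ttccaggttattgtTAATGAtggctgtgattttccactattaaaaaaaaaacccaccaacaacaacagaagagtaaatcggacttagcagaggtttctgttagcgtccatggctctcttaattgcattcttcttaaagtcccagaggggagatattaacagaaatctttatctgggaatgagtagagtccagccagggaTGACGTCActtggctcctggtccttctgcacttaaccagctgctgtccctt
Olfr330: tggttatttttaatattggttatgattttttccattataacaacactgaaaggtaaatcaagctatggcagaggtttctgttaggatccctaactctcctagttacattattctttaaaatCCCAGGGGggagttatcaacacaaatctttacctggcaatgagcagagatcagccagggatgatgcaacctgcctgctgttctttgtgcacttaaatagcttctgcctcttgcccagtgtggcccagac
The aligned windows share 182 of 250 bases, or 72.8%. TGACGTCA, searched on both strands and containing TGACG, occurs in 1.55% of all windows and in 0.106% of the 944 receptor windows, which is Olfr224 alone. TAATGA occurs in 25.3% of receptor windows and CCCNNGGG in 2.75%. Of the 12 receptors 11 had a RefSeq window, and 7 of those begin at the coding ATG, as do 72.6% of all receptor windows, so for them no promoter is shown.

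Outside MOR275, Olfr1183 fell the most. It was read at 7.05, 7.50, 5.58 and 6.30 on odor arrays 1 to 4 and at 11.10, 10.30, 10.89 and 10.78 on vehicle arrays 1 to 4. Odor array 3 lay under its negative control median of 6.10, and odor array 4 was close to its own of 6.08. No odor array came within 2 log2 units of a vehicle array. The difference was -4.16 ± 0.36 (SE), a 17.9-fold fall with an adjusted p of 0.0023 from limma. That fold is not an exact size, since it includes an odor array under the background. Olfr1183 belongs to MOR230, a family with 8 measured members, of which Olfr1209 was also called.

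Olfr1284, of the MOR245 family, was read at 7.21, 6.99, 7.41 and 6.28 on the odor arrays and at 9.83, 9.22, 9.53 and 9.74 on the vehicle arrays. The difference was -2.61 ± 0.23 (SE), a 6.09-fold fall with an adjusted p of 0.0023 from limma. Olfr165, of the MOR279 family, was read at 7.97, 7.89, 8.08 and 7.49 after odor and at 10.80, 9.83, 10.07 and 10.61 after vehicle. Its groups were separated by more than 1 log2 unit, and the difference was -2.47 ± 0.22 (SE, adjusted p = 0.0023 from limma). Olfr286, of the MOR286 family, was read at 8.87, 8.57, 9.17 and 8.28 after odor and at 11.13, 10.35, 10.74 and 10.66 after vehicle, a difference of -1.997 ± 0.21 (SE, adjusted p = 0.0079 from limma).

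Olfr1394 fell below the background of the arrays. All 4 odor arrays, at 5.20, 5.40, 5.90 and 5.61, lay under the negative control median, while the vehicle arrays gave 7.86, 7.85, 7.22 and 8.27. Its fall was therefore at least 3.31-fold, taken against the negative control medians, with an adjusted p of 0.0043 from limma for the measured difference of -2.28 ± 0.22 (SE). Its neighbour Olfr1396 was read at 11.66 ± 0.16 after odor and 12.68 ± 0.09 after vehicle (SD, n = 4). The difference of -1.02 ± 0.11 (SE) is the smallest among the called receptors (adjusted p = 0.0121 from limma).

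The remaining called receptors were Olfr1212 and Olfr1209. Olfr1212, of the MOR233 family, was 9.48 ± 0.29 after odor and 11.10 ± 0.34 after vehicle (SD, n = 4), a difference of -1.62 ± 0.19 (SE, adjusted p = 0.0176 from limma). Olfr1209 was 10.46 ± 0.33 after odor and 11.66 ± 0.12 after vehicle (SD, n = 4), a difference of -1.21 ± 0.16 (SE, adjusted p = 0.0396 from limma). Neither group overlapped the other in any of these receptors.

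The calls divide into firm ones and ones that rest on the full set of arrays. Pcdh10, Olfr1183, Olfr1284 and Olfr165 were called under all 20 alternatives tried. With the replicate number as a block, limma called 11 probe sets (0.0495%), 10 of them lower (0.045%), and 9 were shared with the fit without a block. Olfr1212 and Olfr1396 (adjusted p = 0.0711 for each), Olfr1209 (0.0626) and Olfr325 (0.0886) were lost, and Olfr195 (0.0231) and Olfr124 (0.0299) were gained, with differences of -1.30 ± 0.12 and -1.36 ± 0.13 (SE with the block). These values are of a fixed block. With a random block no call was lost, and Olfr1193, Olfr124, Olfr195, Olfr491 and Sema7a were gained, so the losses depend on the kind of block. When the spread was estimated from all 16 arrays, Olfr224 (adjusted p = 0.195), Olfr328 (0.301), Olfr1209 (0.105) and Olfr1396 (0.0625) were lost in limma. The GFP+ vehicle samples of Olfr224 and Olfr328 were widely spread, with SDs of 1.37 and 1.39 (n = 4).

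Leaving out vehicle array 1, 2 or 3 moved the count of calls the most, to 7, 8 and 7 in limma, and leaving out any of the others gave 9 to 15. Without vehicle array 3 the adjusted p was 0.0565 for Olfr286, 0.115 for Olfr1212, 0.121 for Olfr330, 0.182 for Olfr325 and 0.0784 for Olfr328 in limma. Without vehicle array 1 or 2 it was 0.0851 and 0.0914 for Olfr330, 0.0644 and 0.0683 for Olfr1396, and 0.168 and 0.0914 for Olfr325. Olfr1396 was also lost without odor array 4 (0.0565) or vehicle array 4 (0.0627), and Olfr325 without odor array 1 (0.0665), odor array 3 (0.172) or vehicle array 4 (0.153). Without odor array 2 the adjusted p was 0.082 for Olfr330 and 0.074 for Olfr1212, and without vehicle array 1 it was 0.0587 for Olfr1212, all in limma. The calls of Olfr1209 and Olfr328 were each lost on leaving out any single array other than odor array 1, with adjusted p-values of up to 0.186 and 0.23. No array had to be kept for the calls of Pcdh10, Olfr224, Olfr1183, Olfr165, Olfr1284 and Olfr1394. The differences themselves kept their sign under every one of these alternatives.

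Most families of a called receptor held members that did not pass. These families were picked by their called members, so their counts and medians are a description. Of the 8 measured MOR230 receptors, 6 had a negative difference, and the family median was -1.02. In 3 of the 8 the groups did not overlap, lower after odor, against 1.37% of all probe sets. Olfr1183 and Olfr1209, by which the family was picked, are among the 3. Olfr1205 (-1.61 ± 0.54, SE) was the uncalled member among those 3, while Olfr1201 (0.03 ± 0.25) and Olfr1206 (0.28 ± 0.32) had positive differences. In MOR233, with 17 measured members and a median of 0.00500, Olfr1212 was the only member called. In MOR245, with 22 members and a median of -0.02, Olfr1284 was the only one. Olfr1394 and Olfr1396 are the sole measured members of MOR280 and MOR276.

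Being next to a called receptor was not enough for a call. In gene order, 16 uncalled receptors lay directly next to a called one, and 8 of them had a negative difference, while 32.5% of all receptors did. Groups without overlap, lower after odor, occurred in 2 of the 16, against 1.37% of all probe sets. These were the MOR275 receptors Olfr329 and Olfr331. On the other side of Olfr325, Olfr324 of the MOR102 family differed by 0.26 ± 0.37 (SE), and beyond Olfr331, Olfr332 of MOR284 differed by 0.15 ± 0.21 (SE). Olfr1183 was the only call in GFP- cells in the stretch shown around it. Directly beside it, Olfr1182 differed by 0.15 ± 0.32 and Olfr1184 by 0.29 ± 0.23 (SE). The others ranged from 0.74 ± 0.23 for Olfr1181 to -1.06 ± 0.22 for Olfr1189 and -1.31 ± 0.19 for Olfr1193 (SE).

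**Figure D2:**
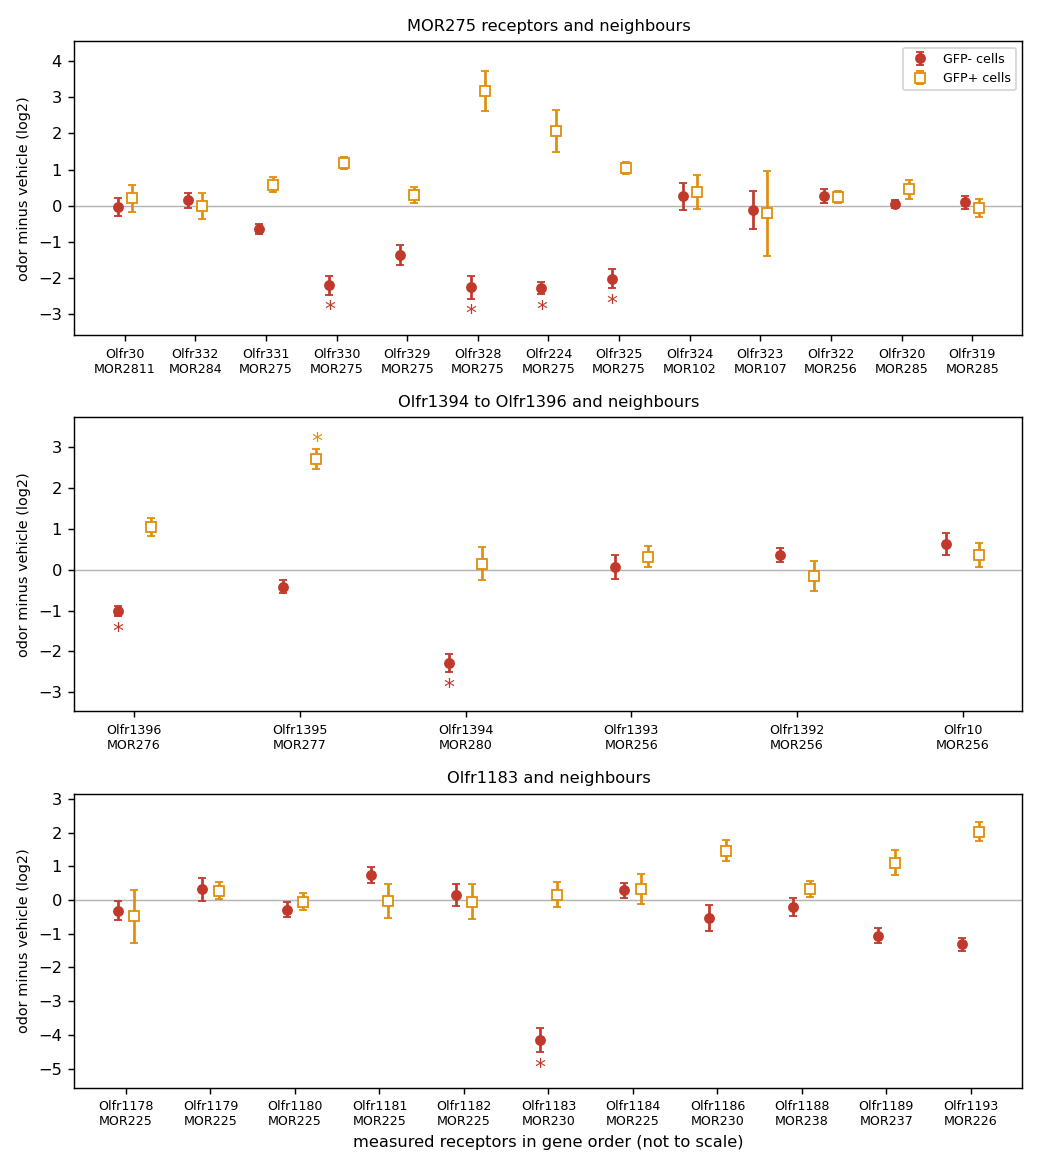
Odor minus vehicle difference (log2, ± SE) of measured receptors in gene order, not to scale, around MOR275, around Olfr1394 to Olfr1396 and around Olfr1183, in GFP- cells (filled circles) and GFP+ cells (open squares), with an asterisk at each called value. All 6 MOR275 receptors lie below 0 in GFP- cells, and receptors of other families on either side of them lie near 0 there. In GFP+ cells all 6 lie above 0. However, Olfr329, at 0.30 ± 0.22, is no higher there than its neighbours Olfr320 (0.46 ± 0.26) and Olfr324 (0.38 ± 0.46) of other families.

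The typical receptor was not lower after odor. The median difference over 1080 receptors was 0.10. Odor arrays lay wholly above the vehicle arrays in 23 receptors (2.13%), against 1.24% of all probe sets. They lay wholly below in 33 receptors (3.06%), against 1.37% of all probe sets. The tails were unequal. A difference below -1 was seen in 27 receptors and one above 1 in 3, against 34 and 7 of all probe sets. Setting the receptor median equal on all arrays moved the receptor median difference to 0.03 and gave 18 lower receptors in place of 12, still with none higher. The receptor with the smallest p among those that were higher was Olfr970, at 8.37 ± 0.36 after odor and 7.22 ± 0.27 after vehicle (SD, n = 4), which was not called (adjusted p = 0.159 in limma). Other receptor types were not called in either direction, among them 15 trace amine-associated receptors (median difference 0.21) and 321 vomeronasal receptors (median difference -0.04).

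Several receptors stood just outside the threshold, named after their values were seen. Olfr1193, a close chromosomal neighbour of the MOR230 group, was 13.91 ± 0.38 after odor and 15.23 ± 0.23 after vehicle (SD, n = 4), a difference of -1.31 ± 0.19 (SE, adjusted p = 0.0618 in limma). Olfr15 was 11.06 ± 0.73 and 12.81 ± 0.18 (SD, n = 4), a difference of -1.76 ± 0.30 (SE, adjusted p = 0.164 in limma), with odor array 3 at 12.05 and the other odor arrays at 10.34 to 11.09. Without odor array 3 Olfr15 passed at an adjusted p of 0.0068 in limma, and Olfr1193 at 0.0438. They passed in 4 and 3 of the 20 alternatives, and with the replicate number as a block their adjusted p-values were 0.361 and 0.207 in limma. Olfr491 had a difference of -1.40 ± 0.22 (SE, adjusted p = 0.12 in limma).

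The same pools of mice also gave GFP+ cells, so each fall can be set beside the odor difference in the cells that the reporter marks. In GFP+ cells 6 probe sets were called higher after odor (0.027%) and none lower. The count was 3 without GFP+ odor replicate 1 and 4 (0.018%) with the replicate number as a block, which ended the GFP+ calls of Pcdh10 (adjusted p = 0.0717 in limma) and Sema7a (0.102). The 6 were Pcdh10, Camk2n1, Sema7a and the receptors Olfr1279, Olfr1395 and Olfr195. Of the 12 receptors that fell in GFP- cells, 10 had a positive difference in GFP+ cells, and none of the 12 was called there. The share of positive GFP+ differences over all receptors was not taken, so the count is a description. The differences of Olfr1183 (0.16 ± 0.37) and Olfr1394 (0.14 ± 0.41) were smaller than their SEs. The difference between the odor effects of both fractions was tested as an interaction over all 16 arrays. It was larger in GFP+ cells for 14 probe sets (0.063%), all odorant receptors, and smaller for none.

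Among the 14 were 9 of the 12 receptors that fell, namely Olfr224, Olfr1183, Olfr1284, Olfr286, Olfr1396, Olfr1212, Olfr330, Olfr325 and Olfr328. The interaction contains the GFP- difference by which these receptors were picked, so for them passing it is not separate evidence of the fall. No test compared these receptors with each other, and their values are given side by side. The MOR275 receptors fell in GFP- cells and had positive differences, not called, in GFP+ cells. Olfr328 went from 10.12, 10.66, 12.29 and 8.94 on the GFP+ vehicle arrays to 14.17, 13.79, 13.26 and 13.49 on the GFP+ odor arrays, a difference of 3.17 ± 0.55 (SE, adjusted p = 0.22 in limma). Its odor effect differed between the fractions by 5.42 ± 0.71 (SE, interaction adjusted p = 0.0016 from limma). For Olfr224 the GFP+ difference was 2.06 ± 0.58 (SE), for Olfr330 1.18 ± 0.17 and for Olfr325 1.04 ± 0.16, with adjusted p-values of 0.95, 0.0581 and 0.0981 in limma.

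Olfr1183 was 11.46 ± 0.32 after odor and 11.30 ± 0.88 after vehicle in GFP+ cells (SD, n = 4), a difference of 0.16 ± 0.37 (SE), and its interaction was 4.32 ± 0.57 (SE, adjusted p = 0.0016 from limma). Olfr1284 was 11.02 ± 0.18 and 10.78 ± 0.07 there (SD, n = 4), with an interaction of 2.85 ± 0.28 (SE, adjusted p = 9.9e-05 from limma). After vehicle the means of Olfr1183 were 10.77 in GFP- and 11.30 in GFP+ cells, and after odor they were 6.61 and 11.46.

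Olfr165, Olfr1209 and Olfr1394 did not pass the interaction test. Olfr165 had negative differences in both fractions, and was read at 11.20 ± 0.74 after odor and 12.25 ± 0.49 after vehicle in GFP+ cells (SD, n = 4), a difference of -1.05 ± 0.35 (SE, adjusted p = 0.98 in limma). The GFP+ differences of Olfr1209 and Olfr1394 were -0.05 ± 0.26 and 0.14 ± 0.41 (SE).

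The receptors called in GFP+ cells were not called in GFP- cells without the block. Olfr195, a MOR184 receptor, was 9.94 ± 0.39 after odor and 11.24 ± 0.30 after vehicle in GFP- cells (SD, n = 4), and 12.97 ± 0.39 and 9.88 ± 0.77 in GFP+ cells. Its odor effects of -1.30 ± 0.21 and 3.10 ± 0.34 (SE) differed by 4.40 ± 0.44 (SE, interaction adjusted p = 9.9e-05 from limma). Olfr1395 lies between Olfr1394 and Olfr1396, and its effects were -0.41 ± 0.15 in GFP- cells and 2.71 ± 0.24 in GFP+ cells (SE). Olfr1279, of the same MOR245 family as Olfr1284, was near or under the negative control median in GFP- cells in both groups, with a difference of -0.57 ± 0.27 (SE), and in GFP+ cells it was called higher. All 4 GFP+ vehicle arrays of Olfr1279, at 4.81, 4.87, 5.41 and 5.23, lay under their negative control medians and the odor arrays gave 7.51, 7.25, 7.88 and 7.17, so the rise was at least 1.86-fold, taken against those medians. The remaining interaction calls were Olfr1193 and Olfr31, and the Olfr31 call was lost once pools were blocked (adjusted p = 0.0747 in limma).

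**Figure D3:**
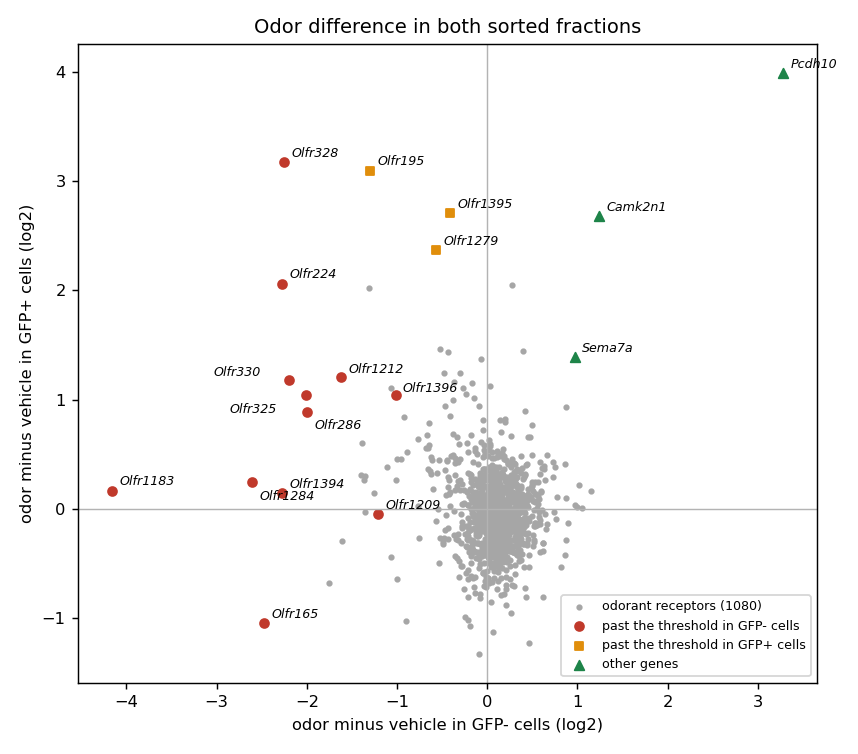
Odor minus vehicle difference (log2) in GFP- cells on the x axis against that in GFP+ cells on the y axis, for the 1080 odorant receptors (grey points) and 3 other genes (green triangles), with receptors called in GFP- cells in red and those called only in GFP+ cells in orange. Red points lie to the left of 0, 10 of 12 of them above the horizontal line, with Olfr1183 and Olfr1394 close to it. Pcdh10, Sema7a and Camk2n1 lie to the right of and above 0. The y value of Olfr1279 rests on vehicle arrays under the negative control medians and is not an exact size.

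A single GFP+ array stood apart. The negative control median of GFP+ vehicle replicate 2 was 7.28, and those of the other GFP+ arrays were 6.22 to 6.48. Without that pool of mice the interaction calls numbered 13, and without that array the GFP+ calls numbered 5. The GFP- array of the same pool had a negative control median of 6.02, within the range of the others.

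Genes whose transcription follows activity over hours in olfactory neurons were listed as a group of 10. In GFP- cells 1 of the 10, Pcdh10, was called. At an unadjusted p under 0.05, 5 were higher, against 1.87% of all probe sets, and none was lower. Bdnf, 1 of these 5, lay under the negative control median on all 4 odor and all 4 vehicle arrays. Its value is therefore a background reading, which also enters the list median. The median difference of the list was 0.40, and its mean level was 11.87 to 12.57 on the odor arrays and 11.21 to 11.53 on the vehicle arrays. The list includes genes chosen with earlier results of these data known, so these values are a description.

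Sema7a, which encodes a membrane-bound semaphorin of olfactory axons, stood next to the threshold. It was read at 14.37, 14.19, 13.78 and 14.23 on odor arrays 1 to 4 and at 13.32, 13.02, 13.17 and 13.19 on vehicle arrays 1 to 4. The groups did not overlap, and the difference was 0.97 ± 0.14 (SE, adjusted p = 0.0618 in limma). Without odor array 3 the difference was 1.09 and the adjusted p 0.02 in limma. With the spread estimated from all 16 arrays the adjusted p was 0.0225 in limma. Sema7a passed in 4 of the 20 alternatives, and with the replicate number as a block its adjusted p was 0.11 in limma. In GFP+ cells, where Sema7a was called without the block, the difference was 1.39 ± 0.17 (SE).

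Camk2n1, an inhibitor of the kinase CaMKII, was read at 10.64, 9.81, 9.42 and 9.60 after odor and at 8.60, 8.69, 9.12 and 8.08 after vehicle. Its groups did not overlap, but vehicle array 3 came close to odor array 3, and the difference of 1.24 ± 0.28 (SE) had an adjusted p of 0.60 in limma. In GFP+ cells the difference was 2.68 ± 0.24 (SE), and the effects of the fractions differed by 1.44 ± 0.39 (SE, interaction adjusted p = 0.64 in limma). Cadm3, a synaptic cell adhesion molecule, differed by 0.66 ± 0.12 (SE, adjusted p = 0.304 in limma), with all odor arrays above all vehicle arrays. For Pcdh10 the GFP+ difference of 3.99 ± 0.43 (SE) was close to that in GFP- cells, and the interaction of 0.71 ± 0.54 (SE) did not pass.

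Other genes of the activity list, and of a list named as raised by odor in earlier results of these data, moved less. S100a5 differed by 0.31 ± 0.13 (SE) in GFP- cells, with odor array 3 at 15.77 and within the vehicle range of 15.70 to 15.89. Kirrel2, an adhesion molecule of glomerular sorting, differed by 0.35 ± 0.43 (SE), and vehicle array 1 at 11.80 was more than 1 log2 unit below the other vehicle arrays. Its relative Kirrel3 differed by -0.00079 ± 0.14 (SE), Pcp4l1, a relative of a Purkinje cell protein gene, by 0.13 ± 0.15 and the selenoprotein gene Selenom by 0.02 ± 0.12. Lrrc3b, a leucine-rich repeat protein gene, differed by 0.57 ± 0.37 (SE). Rem2, a small GTPase gene, differed by 0.24 ± 0.11 (SE) in GFP- and 0.76 ± 0.16 in GFP+ cells, and neither value was called.

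**Figure D4:**
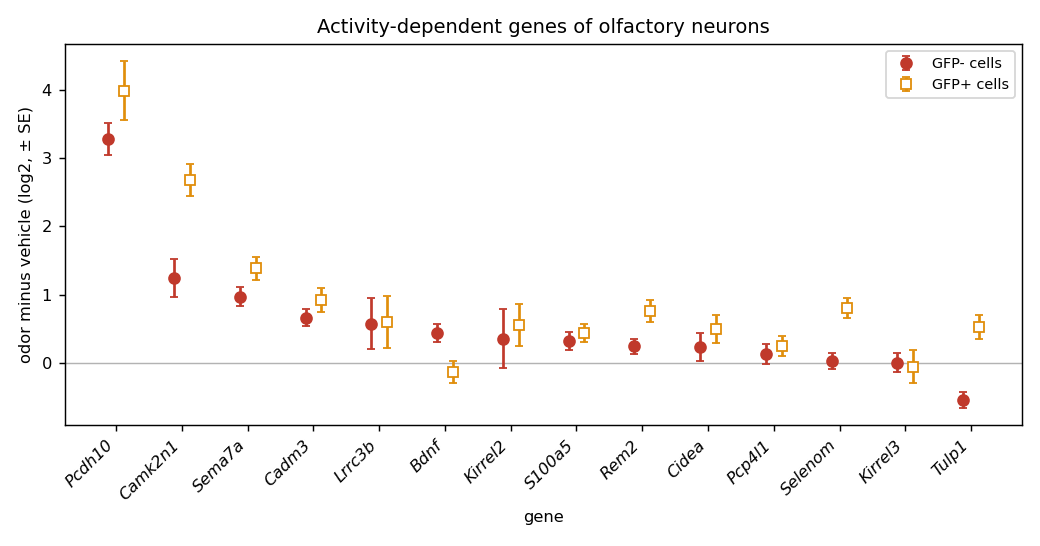
Odor minus vehicle difference (log2, ± SE) of 14 genes in GFP- cells (red circles) and GFP+ cells (open orange squares), ordered by the GFP- value. They are the slow activity-dependent genes of olfactory neurons and the genes named as raised by odor in earlier results of these data. Pcdh10 is far above the others in both fractions, at 3.28 and 3.99, Camk2n1 is at 1.24 and 2.68, and most of the rest lie within 1 of 0. The GFP- values of Bdnf and Tulp1 rest on arrays under the negative control medians and are not exact sizes.

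Among the 9 delta-protocadherins, a small family of adhesion molecules that vary between olfactory neurons, Pcdh10 was the only call. The other 8 differed by -0.28 to 0.07, among them Pcdh19 (-0.27 ± 0.24, SE), Pcdh17 (-0.16 ± 0.20) and Pcdh7 (-0.13 ± 0.24). None of the 32 measured genes of axon guidance and glomerular sorting was called, and their median difference was -0.03. The range ran from Plxna4 at -0.39 ± 0.24 (SE) to Kirrel2.

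Olfactory signal transduction did not change past the threshold. None of its 25 probe sets was called, their median difference was -0.04, and the list level was 13.71 to 13.79 after odor and 13.76 to 13.85 after vehicle. The G protein subunit gene Gnal (-0.08 ± 0.11, SE), the adenylyl cyclase gene Adcy3 (-0.04 ± 0.11), the channel gene Cnga2 (0.13 ± 0.10) and the phosphodiesterase gene Pde1c (0.15 ± 0.10) all differed by less than 0.2. Mature neuron markers gave the same picture, with none of 24 called, a median of 0.02 and Omp at 18.32 ± 0.01 after odor and 18.27 ± 0.09 after vehicle (SD, n = 4). Of 21 probe sets for regulators of receptor choice, none was called, with Lhx2, Ldb1 and Ebf1, whose proteins act on receptor enhancers, at 0.04, -0.05 and 0.01. Immature neuron markers were not called either. Their median was -0.12, and Gap43, a growth cone gene, was 11.72 ± 0.57 after odor and 12.21 ± 0.63 after vehicle (SD, n = 4).

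Of the lists for the other cells of the mucosa, none held a called gene. Supporting cells were present, with the cytochrome gene Cyp2g1 at 15.51 ± 0.22 after odor and 15.48 ± 0.33 after vehicle (SD, n = 4), and none of 16 sustentacular markers was called. Of 11 markers of horizontal basal cells, the quiescent stem cells of the epithelium, 10 lay under the negative control median, Krt5 included. Ensheathing glia and endothelial markers were under it in 5 of 8 and 6 of 9 cases. White blood cells were present: the neutrophil gene S100a8 was 15.68 ± 0.47 after odor and 15.81 ± 0.24 after vehicle, and the leukocyte gene Ptprc was 13.17 ± 0.71 and 13.17 ± 0.25 (SD, n = 4). All 17 neutrophil and 20 macrophage and leukocyte probe sets were above the negative controls, with median differences of -0.07 and -0.13. None of 14 genes of sulfur and thiol metabolism was called (median 0.05, range -0.25 to 0.28), nor any of 21 genes of xenobiotic and oxidative defence (median 0.01).

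Many of these lists moved with the replicate number and not with the odor. The level of 23 inflammatory and interferon genes was 8.32 and 8.84 on odor arrays 2 and 4 and 7.29 and 7.61 on odor arrays 1 and 3. On the vehicle arrays it was 8.37 and 8.54 for numbers 2 and 4 and 7.46 and 7.48 for 1 and 3. Immediate-early genes, which respond within minutes to activity and to tissue handling, were also higher in numbers 2 and 4 than in 1 and 3, with Fos at 13.14, 15.23, 13.33 and 15.77 on odor arrays 1 to 4 and at 13.62, 15.07, 12.90 and 15.41 on vehicle arrays 1 to 4. None of the 32 immediate-early probe sets was called, and their median difference was 0.09. Y-linked genes also followed the number, with Eif2s3y near 4.16 and 4.77 in pools numbered 3 and at 8.84 to 11.99 in the rest. The groups of the called receptors and of Pcdh10 did not overlap, so they were bound to be separated within every number. That separation is no test of the number.

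Odor array 1 was low in several blood and dividing cell markers. Neutrophil markers averaged 12.16 there against 13.27 to 13.43 on the other odor arrays, and 19 cell cycle genes averaged 8.48 against 9.35 to 9.59. The proliferation gene Mki67 was 10.78 there and 12.19 to 12.36 on the others. Without that array, 14 receptors were called lower and Pcdh10 higher, so the count was at least as large.

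**Figure D5:**
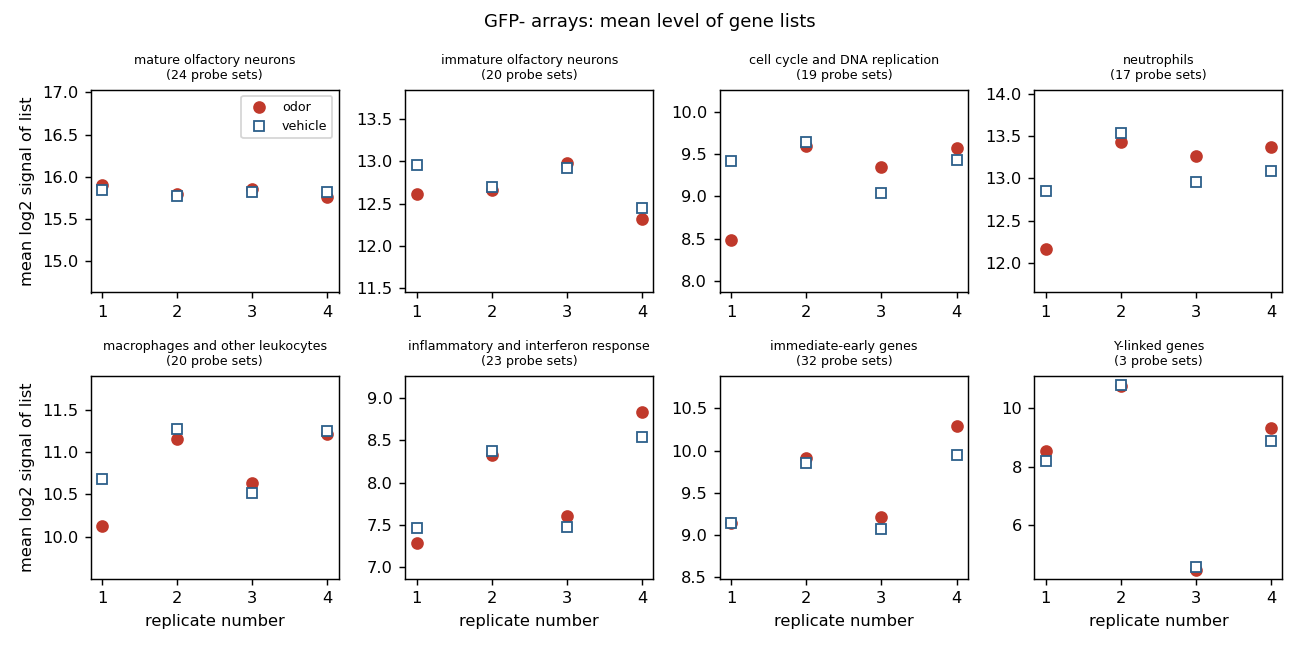
Mean log2 signal of the probe sets of 8 gene lists on each GFP- array, by replicate number on the x axis, with odor arrays as filled red circles and vehicle arrays as open blue squares, each panel on its own y axis. Inflammatory, immediate-early and Y-linked lists follow the replicate number in both groups, while the neutrophil and cell cycle lists are lowest on odor array 1.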

How the data were processed

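The deposited table held log2 signals, made by the authors with Affymetrix Expression Console per the submitters' processing notes; no source used here gives the algorithm or genome build. Of 28846 features, 5222 negative and 1324 positive control entries and other non-gene rows were left out, which left 22206 probe sets, 19572 of them with 1 gene symbol in the platform annotation and 2634 with none. Array number, 4 per group, limits the precision, and each replicate is a pool of 3 mice.

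The main fit used limma 3.58.1 in R 4.3.3 (lmFit and eBayes) on the 8 GFP- arrays, with no further normalization and Benjamini-Hochberg adjustment over all probe sets, and was tested on simulated data. The labels number the replicates 1 to 4 in each group without saying what the number marks. Deviations of same-numbered GFP- arrays correlated at 0.186 to 0.290 and those of different numbers at -0.306 to 0.237. The main fit did not use the number, so its calls, SEs and p-values ignore any pairing. An alternative fit took the number as a block, and its values are given where they change a call. The interaction was fitted on 16 arrays, also with the pool of mice as a block. Alternatives were a shared spread over all 16 arrays, random and fixed blocks, array medians, receptor medians, quantile normalization, a filter on dim probe sets, trended moderation, and leaving out arrays.

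Named genes were all those past the threshold, the 4 receptors with the smallest p in each direction, up to 8 in each direction with the block, up to 2 per gene list, receptors called in GFP+ cells, and a fixed set of activity and marker genes. The members and the gene lists were chosen with earlier results of these data known. Receptor families and gene order came from RefSeq (GRCm38.p6), as did promoter windows.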

Additional observations from a re-analysis of the deposited data

Results flagged for a closer look

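The odor effect in GFP+ cells minus that in GFP- cells passed the interaction test in limma for 14 receptors. Each value contains the GFP- difference, by which the receptors called in GFP- cells were picked. It was 4.34 for Olfr224, 4.32 for Olfr1183, 2.85 for Olfr1284, 2.88 for Olfr286 and 2.05 for Olfr1396. It was 2.83 for Olfr1212, 3.37 for Olfr330, 3.05 for Olfr325 and 5.42 for Olfr328. For receptors not called in GFP- cells it was 3.34 (Olfr1193), 4.40 (Olfr195), 3.12 (Olfr1395), 1.52 (Olfr31) and 2.94 (Olfr1279). The value of Olfr1279 is no exact size, since all its GFP+ vehicle and GFP- odor arrays lay under the negative control medians.

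Dixon's test picked out single arrays in 8 of 150 sets of 4 values. The sets come from the same arrays and some share genes. The rate of 1 in 20 that chance gives in separate sets is therefore no measure for them. Odor array 1 was the array in 5 of them, at 10.94 for Olfr1209, 12.12 for Ptprc, 4.44 for Krt5, 10.78 for Mki67 and 12.16 for the mean of the neutrophil list. Vehicle array 3 was high for Olfr970 (7.62) and Olfr31 (12.25). Vehicle array 1 was low for the mean of the slow activity-dependent genes (11.21). The part of these arrays in the results was not tested beyond leaving each out.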

How the results depend on the processing

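The count of 13 probe sets stayed within 1.5 times under the all-array, block, scaling, filter and moderation alternatives, at 11 with the replicate block and 19 with equal receptor medians. Leaving out single arrays or both arrays of a number gave 5 to 15 probe sets, 4 to 14 receptors and, in GFP+ cells, 3 to 7 probe sets. Without both arrays of a number, whichever it was, the calls of Olfr286, Olfr1212, Olfr325, Olfr1396 and Olfr328 were lost. Those of Olfr1394, Olfr330 and Olfr1209 were lost in some of these fits. The interaction count was 12 to 17. Among called genes no difference changed sign. Uncalled genes near 0 did. With equal receptor medians the difference was -0.048 for Selenom, -0.023 for Omp, -0.036 for Cyp2g1 and -0.067 for Ptprc, and Ptprc was -0.016 after quantile normalization and Kirrel3 0.0077 with equal array medians. Leaving out arrays gave -0.16 to 0.23 for Cyp2g1, -0.39 to 0.57 for Egr1, -0.35 to 0.53 for Fos, -1.27 to 1.70 for Eif2s3y, -0.25 to 0.68 for Kirrel2, -0.12 to 0.074 for Kirrel3, -0.0026 to 0.16 for Krt5, -0.56 to 0.16 for Mki67, -0.00037 to 0.23 for Pcp4l1, -0.19 to 0.35 for Ptprc, -0.33 to 0.062 for S100a8 and -0.054 to 0.072 for Selenom. The causes were not tested. Values under the negative control median have no order.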

Other observations

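Cells of the mucosa that the comparisons above do not turn on were also free of calls. Globose basal and precursor markers (9 probe sets) had a median difference of -0.15, with the stem cell gene Lgr5 at 6.04 after odor and 6.42 after vehicle, a difference of -0.38 ± 0.15 (SE). Bowman's gland and respiratory markers (16) had a median of 0.03 and a wide range, from -1.16 to 1.10. Microvillar and chemosensory markers (13) had a median of -0.08, guanylate cyclase D and MS4A neuron markers (11) -0.08, ensheathing glia markers (8) 0.06, lymphocyte and plasma cell markers (17) -0.02, endothelial markers (9) 0.13 and stromal markers (10) 0.06. All 6 erythroid markers were lower after odor, with a median of -0.25, and their level ran from 9.67 to 11.43 on the odor arrays and from 10.22 to 11.49 on the vehicle arrays, so the groups overlapped.

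Stress lists did not separate the groups either. Heat shock and dissociation genes (9) had a median of 0.01 and levels of 10.21 to 10.32 after odor and 10.17 to 10.29 after vehicle, with Hspa1b at 0.40 ± 0.14 and Bag3 at -0.31 ± 0.12 (SE). Unfolded protein response genes (17 probe sets), which olfactory neurons engage when a receptor is first made, had a median of 0.05. A list of 7 genes named as raised by odor in earlier results of these data had a median of 0.66 in GFP- cells, and Tulp1 in it lay under the negative control median on all 8 arrays.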
